A study of Mus musculus with 6 samples.

Results

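The insulin-like growth factor (IGF) system of the mouse mammary gland was followed through 10 genes: the ligands Igf1 and Igf2, the receptor gene Igf1r, the binding proteins Igfbp2, Igfbp3, Igfbp4, Igfbp5, Igfbp6 and Igfbp7, and the adaptor gene Irs1. Every non-control probe that carried one of these names in the array's own annotation was kept, which gave 18 probes and 36 spots per array. The arrays held 27672 named genes, 41174 probes and 43379 non-control spots in all. The 10 genes were chosen by name and role, with earlier results of these data known, and all 10 passed the filter on dim probes. Counts among them are therefore set beside the shares of all genes as description and not as a test of the set. Of the 18 probes, 17 were well above background on all 6 arrays.

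The study set virgin mice heterozygous for a DNP63 knockout (het) beside wild type mice (WT), both of strain C57/B6, to ask what the ∆N form of the transcription factor p63 does for mammary stem cells. RNA came from 3 cell populations of each genotype. P4 was the sorted CD24+CD29hi fraction, enriched for mammary stem cells (MaSC). P5 was the sorted CD24+CD29lo fraction, enriched for luminal progenitors, and MEC was the preparation labelled as total MECs, mammary epithelial cells not sorted into these fractions. The 6 groups, het P4, WT P4, het P5, WT P5, het MEC and WT MEC, had 1 array each. Mouse age, the number of mice behind a sample and how the allele was made were not given in the sources used here. Each array carried the sample's RNA in Cy5 and Universal Mouse Reference RNA, a mixture from 11 mouse cell lines, in Cy3, with no array of swapped dyes.

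Values below are log2 ratios of the sample over that reference RNA at the same probe, so 0 means an equal signal and 1 means a signal higher by a factor of 2. They compare samples for a gene, and they do not rank genes against each other. Well above background were 74.3% of spots on the WT P4 array, which also had the most spots with an outlying local background, 13 in Cy5, and 82.7% to 89.8% on the other 5 arrays. A background over 3 times its array's median counted as outlying, and values after such backgrounds were replaced are given where they change a call on one of the 10 genes. P4 and P5 were on 1 slide and MEC on another, so slide and sorting cannot be told apart. On both slides het arrays lay at later positions than WT arrays, and the effects of genotype and of array position cannot be told apart. By limma, all 10 basal and myoepithelial markers were called higher in P4 than in P5 (median log2 difference 4.66) and all 8 luminal markers lower (median -3.21), as were 5 of 6 luminal progenitor and 5 of 6 hormone-sensing luminal markers. Trp63, the targeted gene, had log2 ratios of 5.29 in het P4 and 4.41 in WT P4, 0.89 in het P5 and 0.46 in WT P5, and 2.65 in het MEC and 2.78 in WT MEC. For Trp63 the mean of het minus WT over the 3 populations was 0.40, and it turned to -0.39 after outlying backgrounds were replaced. Whether its probe lies in the deleted part of the gene is not given in the sources used here, so these values do not check the genotype labels.

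IGF1 and IGF2 are secreted growth factors that act mainly through the IGF1 receptor, a tyrosine kinase that passes its signal to adaptors such as IRS1 and on to phosphatidylinositol 3-kinase. IGF-binding proteins hold the ligands outside cells and can limit or prolong their action, and proteases that cut them release the ligand. In the mammary gland, IGF1 made in the stroma in response to growth hormone drives duct growth, and Igfbp5 is known for its increase when the gland regresses after weaning.

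Between the sorted fractions, the binding proteins Igfbp2, Igfbp3 and Igfbp7, the ligand Igf2 and the receptor gene Igf1r were higher in P4 than in P5. The largest differences were those of Igfbp3, 37.6-fold, Igfbp2, 22.6-fold, and Igfbp7, 12.2-fold, by 1 probe each. A gene was called where limma's adjusted p, Benjamini-Hochberg over 24831 genes, was under 0.05. By that threshold 5 of the 10 genes were higher in P4 and 0 were lower, where 5.01% of all genes tested were called higher and 5.52% lower. The median difference of the 10 genes was 0.92, against 0.04 over all genes. Without any 1 of the 4 sorted arrays, a fit left with 1 residual degree of freedom, 0 genes were called in this or any other comparison. The sizes moved less: leaving out each of the 6 arrays in turn, P4 minus P5 ran from 4.01 to 4.98 for Igfbp2, from 4.83 to 5.63 for Igfbp3 and from 3.20 to 4.02 for Igfbp7. Without the het MEC array, and likewise without the WT MEC array, 1 residual degree of freedom was left too. Genes were still called there, and P4 minus P5 of each of the 10 genes was unchanged. With the P4 and P5 arrays alone, 1 residual degree of freedom was left too. In that fit 8 of the 10 genes were called higher in P4, with Igfbp4, Igfbp5 and Igfbp6 added, as were 2285 of all 24831 genes. In whole-population RNA, fewer cells of a type and less RNA per cell cannot be told apart.

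**Figure D1:**
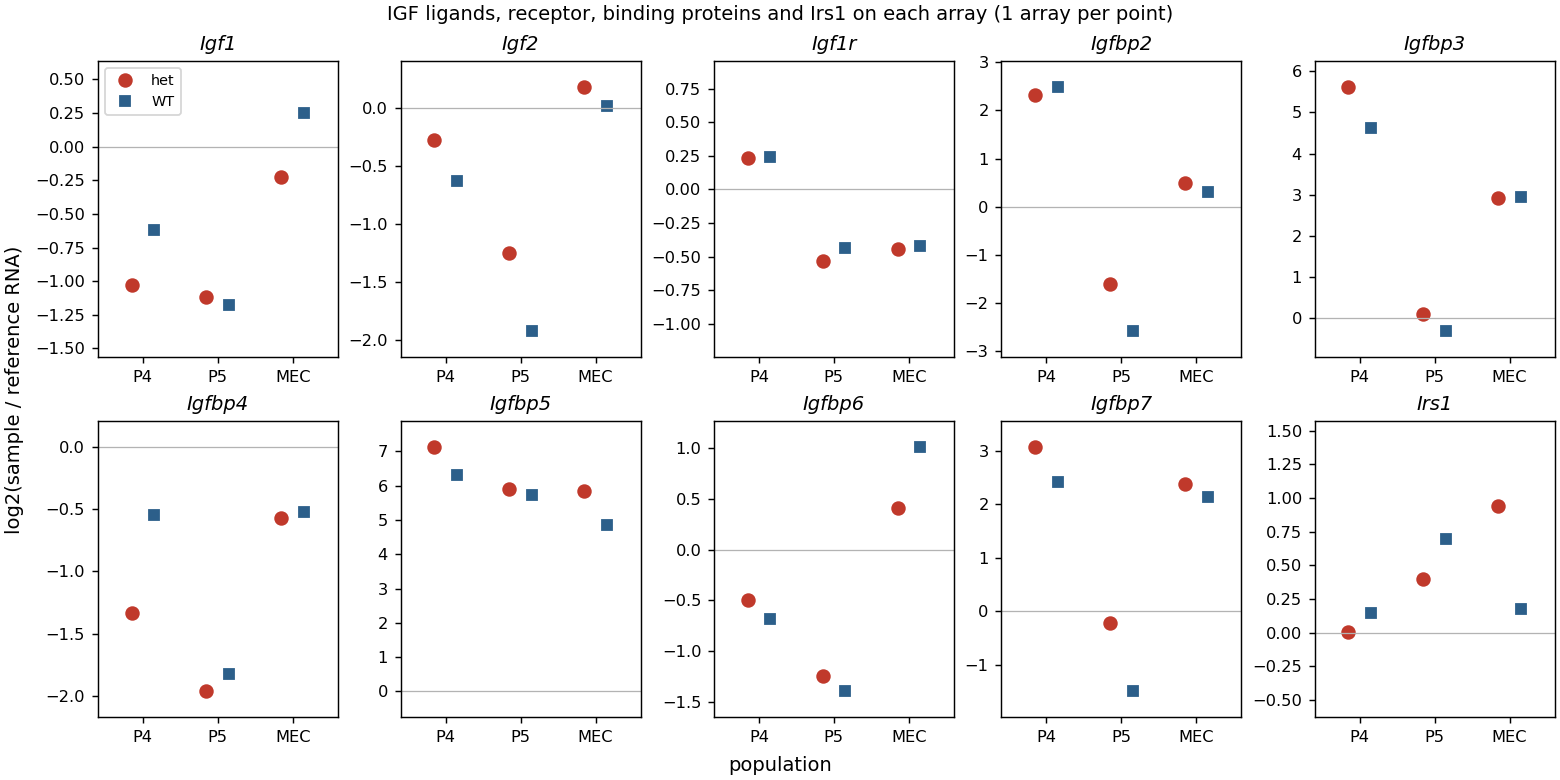
Log2 ratio of sample over reference RNA (vertical axis, a separate range per gene) for the 10 genes in P4, P5 and MEC, with het as red circles left of WT as blue squares, 1 array per point. Igfbp2, Igfbp3 and Igfbp7 lie far apart between P4 and P5 in both genotypes, and Igf1, Igf2 and Igfbp6 are highest in MEC.

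Of the ligands, Igf1 was lower in P5 than in MEC, and its level in P4 was not distinguished from P5. The probe used for it reads a stretch on chr10:87471884-87471943, plus strand, in build mm7, and is shown because all 6 Igf1 values that follow rest on it.
Igf1, probe A_52_P536434: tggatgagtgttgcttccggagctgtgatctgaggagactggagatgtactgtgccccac
Its log2 ratio was -1.03 in het P4 and -0.62 in WT P4, -1.12 in het P5 and -1.18 in WT P5, and -0.23 in het MEC and 0.25 in WT MEC. Both MEC arrays lay above all 4 sorted arrays. P5 minus MEC was -1.16 ± 0.17 (SE, n = 2 arrays in each population; limma adjusted p = 0.0471, or 0.0536 with no filter on dim probes), and P4 minus MEC was -0.84 (adjusted p = 0.0665). P4 minus MEC passed after outlying backgrounds were replaced (-1.09, adjusted p = 0.0293), with median centring (-1.42, adjusted p = 0.0113) and with the scanner's own log ratio (-1.245, adjusted p = 0.0321), and also with an offset of 0, the deposited table and Cy5 alone. Between the sorted fractions P4 minus P5 was 0.33 ± 0.17 (adjusted p = 0.345), with both P4 arrays above both P5 arrays. A further Igf1 probe, A_51_P147942, was printed 10 times on each array. Its mean over 9 or 10 spots was -1.83 in het P4 and -1.04 in WT P4, -2.12 in het P5 and -2.31 in WT P5, and -0.13 in het MEC and 0.55 in WT MEC, with SDs between spots of 0.0337 to 0.094. The differences it gave were larger, -2.42 for P5 minus MEC (adjusted p = 0.0267 over 36627 probes) and -1.64 for P4 minus MEC (adjusted p = 0.0467). A probe for Igf1 named from another transcript, A_52_P306327, was well above background on 4 of the 6 arrays and gave -0.35 for P5 minus MEC (adjusted p = 0.243).

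Igf2, the ligand known for its role in fetal growth, was higher in P4 than in P5 and higher in MEC than in P5. Its probe, printed 10 times, lies on chr7:139078075-139078135 on the minus strand of mm7. Its log2 ratio was -0.27 in het P4 and -0.63 in WT P4, -1.25 in het P5 and -1.92 in WT P5, and 0.18 in het MEC and 0.02 in WT MEC. The 3 populations did not overlap, in the order MEC, P4, P5. P4 minus P5 was 1.13 ± 0.16 (SE, n = 2 each; limma adjusted p = 0.0263, or 0.113 with median centring), or 2.2-fold, and P5 minus MEC was -1.69 ± 0.16 (adjusted p = 0.0219). P4 minus MEC, -0.55 ± 0.16, did not pass (adjusted p = 0.124). It did pass with Cy5 alone (-0.82, adjusted p = 0.0406), with median centring (-1.64, adjusted p = 0.0117) and with median centring after outlying backgrounds were replaced (-2.075, adjusted p = 0.0003665). The other Igf2 probe had the same direction in all 3 comparisons, with 0.82 for P4 minus P5 (adjusted p = 0.0611).

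Igf1r, which encodes the receptor for both ligands, was higher in P4 than in P5 and MEC, by a smaller amount. It had log2 ratios of 0.23 in het P4 and 0.24 in WT P4, -0.53 in het P5 and -0.44 in WT P5, and -0.44 in het MEC and -0.42 in WT MEC. The P4 arrays lay above the other 4, and P5 and MEC overlapped. For Igf1r, P4 minus P5 was 0.72 ± 0.11 (SE, n = 2 each; limma adjusted p = 0.0288, or 0.0728 with the scanner's own log ratio and 0.238 with median centring), or 1.65-fold, and P4 minus MEC was 0.67 ± 0.11 (adjusted p = 0.0436). P5 minus MEC was -0.05 (adjusted p = 0.833), or -0.99 with median centring (adjusted p = 0.0316). Its second probe gave 0.42 for P4 minus P5 (adjusted p = 0.123), and 0.13 after outlying backgrounds were replaced. With log ratios centred on each array's median in place of loess, P4 minus MEC of Igf1r was -0.32, where the median of all genes was -0.23, so the direction against MEC turned with the scaling. With outlying backgrounds replaced too it was -0.646 and called lower in P4 (limma adjusted p = 0.0135), where the median of all genes was -0.443. The call of Igf1r as higher in P4 than in MEC was also lost with an offset of 0, the scanner's log ratio, the deposited table, Cy5 alone and the mean over probes (adjusted p = 0.0617 to 0.12).

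Igfbp2, whose protein binds IGF2 with preference, separated P4 from P5 and lay between them in MEC. Its single probe is on chr1:73093964-73094023, plus strand, in mm7, and is shown with a probe of Igfbp3 and one of Igfbp4 because each stands for a binding protein whose values, or whose difference between probes, are given here.
Igfbp2, probe A_51_P423308: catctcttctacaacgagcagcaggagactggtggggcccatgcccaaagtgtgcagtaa
Igfbp3, probe A_51_P228472: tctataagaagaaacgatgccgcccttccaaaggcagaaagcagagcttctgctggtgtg
Igfbp4, probe A_51_P398971: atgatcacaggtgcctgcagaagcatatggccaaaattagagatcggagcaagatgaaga
Igfbp2 had log2 ratios of 2.32 in het P4 and 2.49 in WT P4, -1.60 in het P5 and -2.58 in WT P5, and 0.50 in het MEC and 0.31 in WT MEC. The populations did not overlap, in the order P4, MEC, P5. The difference P4 minus P5 was 4.50 ± 0.30 (SE, n = 2 each; limma adjusted p = 0.00803), the difference ranked 36 from the top among 24831 genes. P4 minus MEC was 1.999 ± 0.30 (adjusted p = 0.0393) and P5 minus MEC was -2.50 ± 0.30 (adjusted p = 0.0315), so each step of the order passed the test. With median centring P4 minus MEC was 0.79 (adjusted p = 0.254).

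Igfbp3, whose protein carries most of the IGF in blood plasma, followed the same order with the largest difference of the 10 genes. Its brighter probe, A_52_P253179, lies on chr11:7158599-7158658 on the minus strand of mm7. It had log2 ratios of 5.62 in het P4 and 4.63 in WT P4, 0.11 in het P5 and -0.32 in WT P5, and 2.91 in het MEC and 2.95 in WT MEC. The fitted P4 minus P5 difference was 5.23 ± 0.27 (SE, n = 2 each; limma adjusted p = 0.00652), ranked 13 from the top of all genes. P4 minus MEC was 2.19 ± 0.27 (adjusted p = 0.0295) and P5 minus MEC was -3.04 ± 0.27 (adjusted p = 0.0193). P4 minus MEC was smaller but still called with median centring (0.945, adjusted p = 0.0422), with median centring after outlying backgrounds were replaced (0.669, adjusted p = 0.0485) and as the mean over both probes (1.39, adjusted p = 0.0405). The other probe, A_51_P228472, whose sequence is given above, did not show this range. It is 60 bases long, but its coordinates, chr11:7160474-7161483 on the minus strand of mm7, span 1010 bases, so its sequence is interrupted in the genome. Its log2 ratios were 0.78 in het P4 and 0.46 in WT P4, -0.11 in het P5 and 0.10 in WT P5, and 0.03 in het MEC and 0.05 in WT MEC. Both P4 arrays were the highest there too, with P4 minus P5 of 0.63 (adjusted p = 0.0875 over all probes), or 1.19 after outlying backgrounds were replaced. The 37.6-fold difference thus rests on 1 of the gene's 2 probes.

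Igfbp7, whose protein binds IGFs weakly and is found in extracellular matrix, was lower in P5 than in both other populations. Its single probe is on chr5:77280659-77280718 on the minus strand of mm7. It had log2 ratios of 3.07 in het P4 and 2.43 in WT P4, -0.23 in het P5 and -1.50 in WT P5, and 2.38 in het MEC and 2.13 in WT MEC. Its P4 minus P5 difference was 3.61 ± 0.27 (SE, n = 2 each; limma adjusted p = 0.00909), ranked 71 from the top, and P5 minus MEC was -3.12 ± 0.27 (adjusted p = 0.019). P4 and MEC were not separated, with a difference of 0.49 (adjusted p = 0.325) that turned to -0.94 with median centring (adjusted p = 0.117). With outlying backgrounds replaced too, P4 was called lower than MEC (-1.29, adjusted p = 0.009985), where the median of all genes was -0.44.

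Igfbp5 had its highest ratios in P4. Its log2 ratios were 7.13 in het P4 and 6.30 in WT P4, 5.89 in het P5 and 5.74 in WT P5, and 5.83 in het MEC and 4.84 in WT MEC. Both P4 arrays lay above the other 4, and P5 and MEC overlapped. P4 minus MEC passed at 1.37 ± 0.23 (SE, n = 2 each; limma adjusted p = 0.0471), and P4 minus P5, 0.90 ± 0.23, did not (adjusted p = 0.0894). P4 minus MEC was 0.098 with median centring (adjusted p = 0.828) and had an adjusted p of 0.0552 with no filter. After outlying backgrounds were replaced, P4 minus P5 was 1.18 (adjusted p = 0.0138). With that replacement and median centring P4 minus MEC was -0.20, where the median of all genes was -0.44. P4 minus P5 of Igfbp5 also passed with the scanner's log ratio, the deposited table and Cy5 alone (adjusted p = 0.0243 to 0.0342). It passed too with the P4 and P5 arrays alone (adjusted p = 0.035). The gene's other probe gave -0.02 for P4 minus P5 and -0.59 for P4 minus MEC (adjusted p = 0.987 and 0.548 over all probes). The call against MEC therefore holds for 1 of 2 probes, and the mean over both gave 0.39 (adjusted p = 0.57).

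Igfbp4, whose protein inhibits IGF action until the protease PAPP-A cuts it, had log2 ratios of -1.34 in het P4 and -0.55 in WT P4, -1.96 in het P5 and -1.82 in WT P5, and -0.57 in het MEC and -0.52 in WT MEC. Both P5 arrays were the lowest, but no difference was called: P4 minus P5 was 0.95 ± 0.22 (limma adjusted p = 0.0681) and P5 minus MEC was -1.35 ± 0.22 (adjusted p = 0.0537; 0.0312 after outlying backgrounds were replaced). P5 minus MEC of Igfbp4 also passed with an offset of 0, the scanner's log ratio, the deposited table, Cy5 alone, median centring and the filter for all 6 arrays (adjusted p = 0.014 to 0.0456). P4 minus P5 passed with an offset of 0 (1.28, adjusted p = 0.0455) and as the mean over probes (0.76, adjusted p = 0.0494). It passed too with the P4 and P5 arrays alone (adjusted p = 0.0277). P4 minus MEC, -0.40 (adjusted p = 0.332), passed at -1.32 with median centring and replaced backgrounds (adjusted p = 0.00259). The median of all genes was -0.44 there. The Igfbp4 probe shown above gave smaller differences, 0.58 for P4 minus P5 (adjusted p = 0.0959) and -0.31 for P5 minus MEC (adjusted p = 0.318).

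Igfbp6, whose protein prefers IGF2, was lowest in P5 and highest in MEC. It had log2 ratios of -0.50 in het P4 and -0.68 in WT P4, -1.24 in het P5 and -1.40 in WT P5, and 0.41 in het MEC and 1.01 in WT MEC, with no overlap between populations. P5 minus MEC was -2.03 ± 0.24 (SE, n = 2 each; limma adjusted p = 0.03). P4 minus MEC, -1.30, had an adjusted p of 0.0517 (0.0274 after outlying backgrounds were replaced), and P4 minus P5, 0.73, had an adjusted p of 0.138. With median centring P4 minus MEC of Igfbp6 was -2.64 (adjusted p = 0.00676), and it passed too with an offset of 0, the scanner's log ratio, the deposited table, Cy5 alone and the filter for all 6 arrays. P4 minus P5 of Igfbp6 passed with the P4 and P5 arrays alone (adjusted p = 0.0196).

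Irs1, the adaptor, differed from the other 9 genes in the sign of its P4 minus P5 difference. Its log2 ratios were 0.00 in het P4 and 0.14 in WT P4, 0.40 in het P5 and 0.70 in WT P5, and 0.94 in het MEC and 0.18 in WT MEC. Both P4 arrays were the lowest, and P5 and MEC overlapped. With loess and all 6 arrays, no Irs1 difference passed the test: P4 minus P5 was -0.48 ± 0.29 (limma adjusted p = 0.414), and its other probe gave -0.93 (adjusted p = 0.112). P4 minus MEC of Irs1, -0.49 (adjusted p = 0.374), passed at -1.67 with median centring (adjusted p = 0.0425), at -2.05 with replaced backgrounds too (adjusted p = 0.00363) and at -0.98 without the WT MEC array (adjusted p = 0.0244), and was 0.009 without the het MEC array. P5 minus MEC, -0.01, was -1.24 with median centring and replaced backgrounds (adjusted p = 0.0255).

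**Figure D2:**
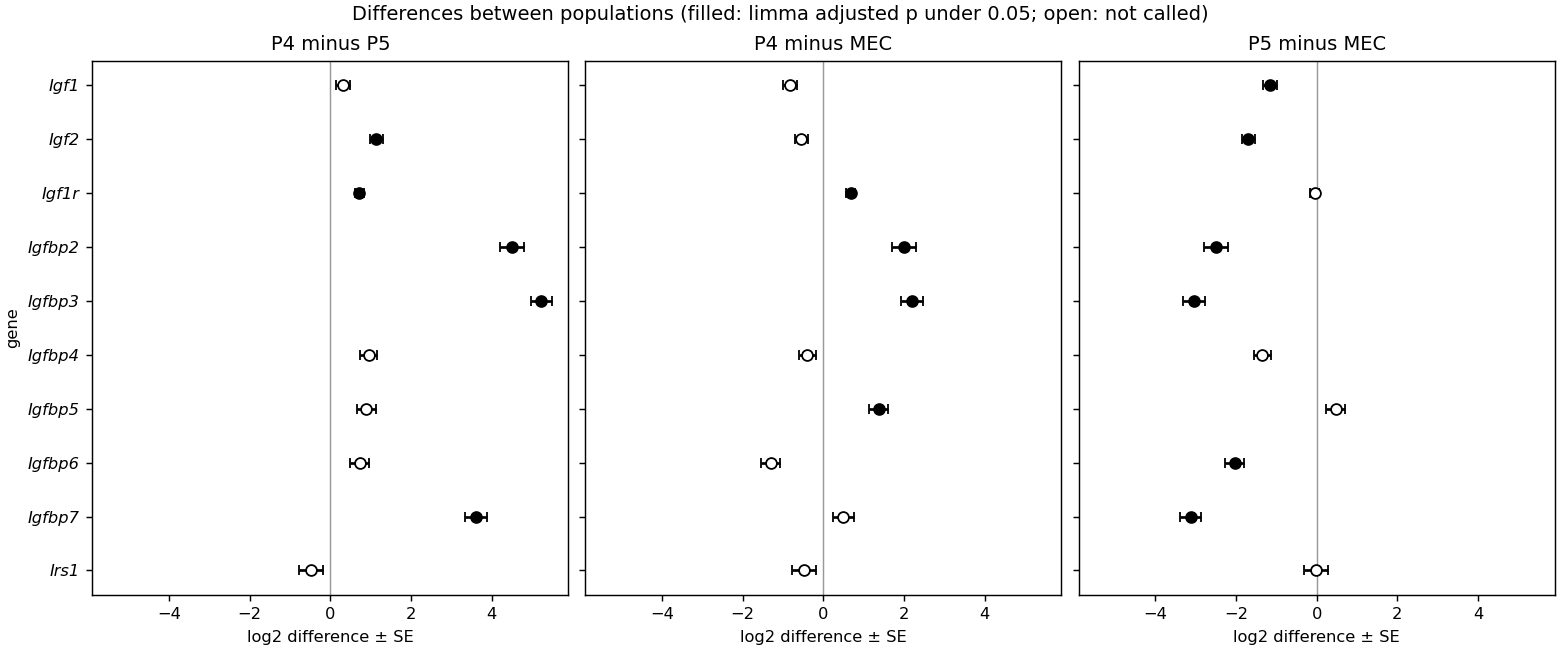
Log2 differences between populations from the limma fit (points) with their standard errors (bars) for the 10 genes, with filled points for an adjusted p under 0.05. P4 minus P5 runs from -0.48 for Irs1 to 5.23 for Igfbp3, and P5 minus MEC is -1.16 or lower for all 6 filled genes.

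Both P4 arrays lay above both P5 arrays for 9 of the 10 genes, a pattern seen in 23.7% of all genes, and below them for Irs1, as for 22.4% of all genes. Against MEC, both P4 arrays were above both MEC arrays for 5 genes (22.9% of all genes) and below them for 4 (23.2% of all genes). P4 was called higher for 4 genes (Igf1r, Igfbp2, Igfbp3 and Igfbp5; 2.75% of all genes) and lower for 0 (4.1% of all genes). That balance turned with the scaling: with median centring P4 was called higher than MEC for 1 of the 10, Igfbp3 (1.33% of all genes), and lower for 4 (27% of all genes), and with replaced backgrounds too, higher for 1 (16.6%) and lower for 7 (49.4%). With replaced backgrounds and loess, P4 was called higher for 4 (2349 of all 24831 genes) and lower for 2, Igf1 and Igfbp6 (2065 of all 24831 genes). P5 was called lower than MEC for 6 genes (Igf1, Igf2, Igfbp2, Igfbp3, Igfbp6 and Igfbp7), where 3.01% of all genes were lower, and higher for 0, where 0.922% were. Both P5 arrays were below both MEC arrays for 7 of the 10 genes, those 6 and Igfbp4, as for 23.8% of all genes, and above them for 0, as for 25% of all genes. After outlying backgrounds were replaced, the calls came to 6 of 10 in P4 minus P5 (14.9% of all genes), 6 in P4 minus MEC (17.8%) and 7 in P5 minus MEC (6.07%).

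Markers of other cells moved with the differences from MEC. Of 8 fibroblast markers, 4 were called lower in P4 than in MEC (median -3.17) and 6 were called lower in P5 than in MEC (median -4.05), and all 8 were higher in P4 than in P5, 2 of them called (median 1.16). The median log2 ratio of the fibroblast markers was -0.96 in het P4 and -1.68 in WT P4, -2.35 in het P5 and -3.37 in WT P5, and 0.14 in het MEC and 0.81 in WT MEC. Of 7 endothelial markers, 6 were called lower than MEC in P4 and 6 in P5. The same comparisons called 1 and 2 of 5 pericyte markers, 2 and 2 of 6 adipocyte markers and 1 and 2 of 7 leukocyte markers lower in P4 and in P5; between P4 and P5, 1 pericyte marker was called, and 0 endothelial, adipocyte or leukocyte markers. Igf1, Igf2 and Igfbp6, and Igfbp4 by its population means, lay in the same order of populations as the fibroblast median, MEC above P4 above P5. That order was not particular to fibroblast markers. Median P4 minus P5 was 0.11 for endothelial, 0.64 for pericyte, 0.115 for adipocyte and 0.59 for leukocyte markers. Median P4 minus MEC of these lists was -2.44, -0.35, -1.09 and -0.175, in that sequence. The part of these cells in the IGF results was not tested.

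The order of the arrays within a gene was shared by several of the 10 genes. Across the 6 arrays, which share slides, sorts and the reference RNA, Pearson's r was 0.98 between Igfbp2 and Igfbp3, 0.94 between Igfbp3 and Igfbp7, and 0.95 between Igf1 and Igfbp6. For the genes called between P4 and P5, the 3 most alike profiles were sought among 20816 genes above background on all 6 arrays, by the root mean square difference of centred log2 ratios. They were Sobp (0.155), Nkd1 (0.223) and Acta1 (0.235) for Igfbp3. For Igfbp2, Nexn (0.238) and Lmod1 (0.241) were the nearest 2. For Igfbp7 they were Aoc3 (0.198), Ackr3 (0.27) and Nbl1 (0.288). For Igf2 they were Tmem37 (0.129), Abca1 (0.14) and Rtl8b (0.141), and for Igf1r Rab6a (0.0374), Ccdc6 (0.039) and Tmem120a (0.0435).

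The probes of Igfbp2 and Igfbp5 lie 6092 bases apart on chromosome 1 of mm7, on opposite strands, and their differences between populations were unlike in size. P4 minus P5 was 4.50 for Igfbp2 and 0.90 for Igfbp5, and P5 minus MEC was -2.50 for Igfbp2 and 0.48 for Igfbp5. The 0.48 was not called (limma adjusted p = 0.325). The other Igfbp5 probe gave -0.02 for P4 minus P5 and -0.56 for P5 minus MEC, so the sign of the latter depends on the probe.

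Because Igfbp2, Igfbp3 and Igfbp7 differed most between P4 and P5, the 250 bases before their start sites are shown (for Igfbp2, the upstream one of 2 listed starts), from RefSeq with build GRCm38.p6, each read 5′ to 3′ on the gene's own strand. Capitals mark GGGCGG, or CCGCCC on the other strand. The windows are chr1:72824230-72824479 on the plus strand for Igfbp2, chr11:7213924-7214173 on the minus strand for Igfbp3 and chr5:77408046-77408295 on the minus strand for Igfbp7.
Igfbp2: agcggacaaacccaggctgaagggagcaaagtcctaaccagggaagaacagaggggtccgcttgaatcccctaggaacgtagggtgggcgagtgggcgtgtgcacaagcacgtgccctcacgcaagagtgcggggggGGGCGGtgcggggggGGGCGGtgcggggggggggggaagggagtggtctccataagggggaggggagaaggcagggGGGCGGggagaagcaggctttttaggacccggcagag
Igfbp3: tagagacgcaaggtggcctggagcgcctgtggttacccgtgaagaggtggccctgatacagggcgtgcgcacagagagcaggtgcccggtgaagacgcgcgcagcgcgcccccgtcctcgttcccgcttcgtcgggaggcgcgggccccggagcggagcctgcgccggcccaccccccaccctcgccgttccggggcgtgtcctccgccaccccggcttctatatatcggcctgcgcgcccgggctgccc
Igfbp7: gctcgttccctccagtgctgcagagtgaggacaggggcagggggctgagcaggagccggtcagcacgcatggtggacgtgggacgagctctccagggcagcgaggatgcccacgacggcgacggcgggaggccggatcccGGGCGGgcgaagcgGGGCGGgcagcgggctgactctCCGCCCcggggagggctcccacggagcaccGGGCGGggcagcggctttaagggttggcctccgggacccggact
GGGCGG, searched on both strands, had 3 matches for Igfbp2, 0 for Igfbp3 and 4 for Igfbp7, and 32.7% of 32851 such windows held at least 1. No GGGCGG match overlapped another motif. TATAAA had no match in the 3 windows, and was in 12.4% of all windows. The p53-family half-site, searched by its consensus, had no match in them and was in 1.63% of all windows. The CArG box had no match in them either, and was in 1.47% of all windows. The 3 windows therefore had no searched motif in common, which says only that these letters are not there.

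The probes of a gene were set side by side for the 7 genes with more than 1. With backgrounds as deposited they had the same sign of P4 minus P5 for 6 of them, all but Igfbp5, and differed most for Igfbp3.

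**Figure D3:**
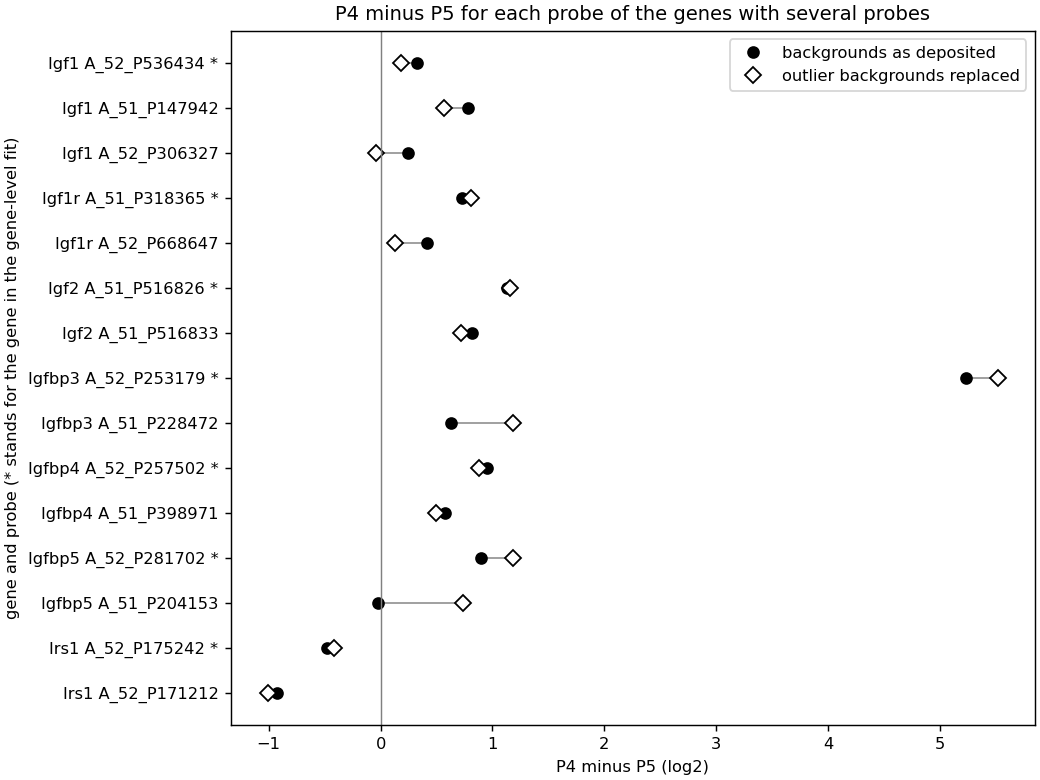
P4 minus P5 (log2, horizontal axis) for each probe of the 7 genes with several probes, with filled circles for backgrounds as deposited and open diamonds after outlying backgrounds were replaced. The 2 Igfbp3 probes lie at 5.23 and 0.63, and the second Igfbp5 probe lies at -0.02 with backgrounds as deposited and at 0.74 after the replacement.

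Between genotypes, no member of the set was called. The genotype term of the fit, the mean of het minus WT over the 3 populations, passed for 0 of the 10 genes and 0 of all genes (0% called), with a smallest adjusted p of 0.206 and 5192 genes at an unadjusted p under 0.05. Of the 10 genes, 3 had an unadjusted p under 0.05: Igfbp7 (0.72 ± 0.22, SE, limma adjusted p = 0.206), Igfbp5 (0.66 ± 0.19, adjusted p = 0.206) and Igf2 (0.40 ± 0.13, adjusted p = 0.216). By the probe used for each, these 3 were higher in het than in WT in all 3 populations, as 33.5% of all genes were. The other Igf2 probe was lower in het within P4 (-0.48) and MEC (-0.16), and the mean over both Igf2 probes gave 0.115 for het minus WT (adjusted p = 0.616). The other Igfbp5 probe was lower in het within P5 (-0.73). With median centring, het minus WT was -0.43 for Igfbp7, -0.40 for Igfbp5 and -0.51 for Igf2, where the median of all genes was -0.21. Igf1r and Igfbp4 were lower in het in all 3, as 14.4% of all genes were; the other Igfbp4 probe, and the one used for the gene after outlying backgrounds were replaced, were higher in het within P5 (0.20 and 0.096).

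Within a population there was 1 array of each genotype and so no test. Probes printed 10 times on each array gave a technical SD of 0.142 for a difference between 2 spots, which covers spot error but no difference between mice or preparations. Only Igfbp7 in P5 was at least 2-fold apart, 1 of the 10 genes higher in het, where 2.61% of all genes were, and 0 lower, where 0.555% were. Within P4, 0 of the 10 were 2-fold higher in het (6.21% of all genes) or lower (0.0847%), and within MEC 0 were higher (2.02%) or lower (0.69%). For Igfbp7 the het minus WT value was 1.27 within P5, and smaller within P4 (0.65) and MEC (0.25); after outlying backgrounds were replaced it was 1.28 within P5, 0.52 within P4 and 0.19 within MEC. Igfbp2 gave 0.98 within P5 (1.09 after the replacement), -0.17 within P4 and 0.19 within MEC. Igf2, read from 10 spots per array, gave 0.67 within P5, 0.35 within P4 and 0.16 within MEC, where its single-spot probe gave 0.135, -0.48 and -0.16. Over 9 processing settings, the P5 value ran from 0.401 to 1.28 for Igfbp7, 0.155 to 1.087 for Igfbp2 and -0.101 to 0.773 for Igf2. The P4 value ran from -1.011 to 0.649, -1.759 to -0.168 and -1.02 to 0.397, in that sequence. For MEC it ran from -0.665 to 0.25, -0.414 to 0.242 and -0.416 to 0.176. The 2-fold Igfbp7 difference in P5 was thus not kept in every setting. After the replacement 2 of the 10 genes, Igfbp7 and Igfbp2, were at least 2-fold higher in het P5, as 2.34% of all genes were. In P5 all 10 basal and myoepithelial markers (median 0.68) and all 8 fibroblast markers (median 0.63) were also higher in het than in WT. So were all 7 endothelial (median 0.63), all 6 luminal progenitor (median 0.65) and all 5 pericyte markers (median 0.37), 6 of 7 leukocyte and 5 of 6 adipocyte markers. Luminal markers were higher in het for 3 of 8 (median -0.33) and hormone-sensing luminal markers for 1 of 6 (median -0.765). The median of all genes was 0.071 there, and the part of any of these cells in the P5 values was not tested.

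Igfbp3 het minus WT was 0.99 within P4, with 0.42 within P5 and -0.04 within MEC. Igfbp5 het minus WT was 0.83 within P4 and 0.99 within MEC, against 0.16 within P5. After outlying backgrounds were replaced, the P4 value was 0.60 for Igfbp3 and 0.28 for Igfbp5, and the MEC value of Igfbp5 was 0.52. The WT P4 array, with the most outlying backgrounds, enters both P4 values. The 10 basal and myoepithelial markers shifted in the same way in P4, with a median of 0.70 as deposited and 0.09 after the replacement, as did the 7 endothelial markers, with medians of 0.999 and 0.005. The other Igfbp5 probe gave 0.34 within P4, or -1.10 after the replacement. Over 9 processing settings, the P4 value ran from -0.586 to 1.04 for Igfbp3 and from -0.781 to 0.852 for Igfbp5. The MEC value of Igfbp5 ran from 0.202 to 1.163. Igf1 het minus WT was -0.40 within P4 (-0.14 after the replacement) and -0.48 within MEC (-0.57 after it), with 0.06 within P5. Its 10-spot probe gave the same signs in P4 and MEC. The spots ran from -1.95 to -1.76 in het P4 and -1.14 to -0.96 in WT P4, and from -0.20 to -0.09 in het MEC and 0.47 to 0.60 in WT MEC. They are copies of 1 probe on 1 array per genotype, so their spread covers spot error only and does not test the genotypes. After the replacement the mean of this probe was -1.97 in het P4 and -1.60 in WT P4, and -0.13 in het MEC and 0.685 in WT MEC. Igfbp6 het minus WT within MEC was -0.60, where all 8 fibroblast markers (median -0.865) and 5 of 7 leukocyte markers (median -0.60) were also below WT; their part in this value was not tested.

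**Figure D4:**
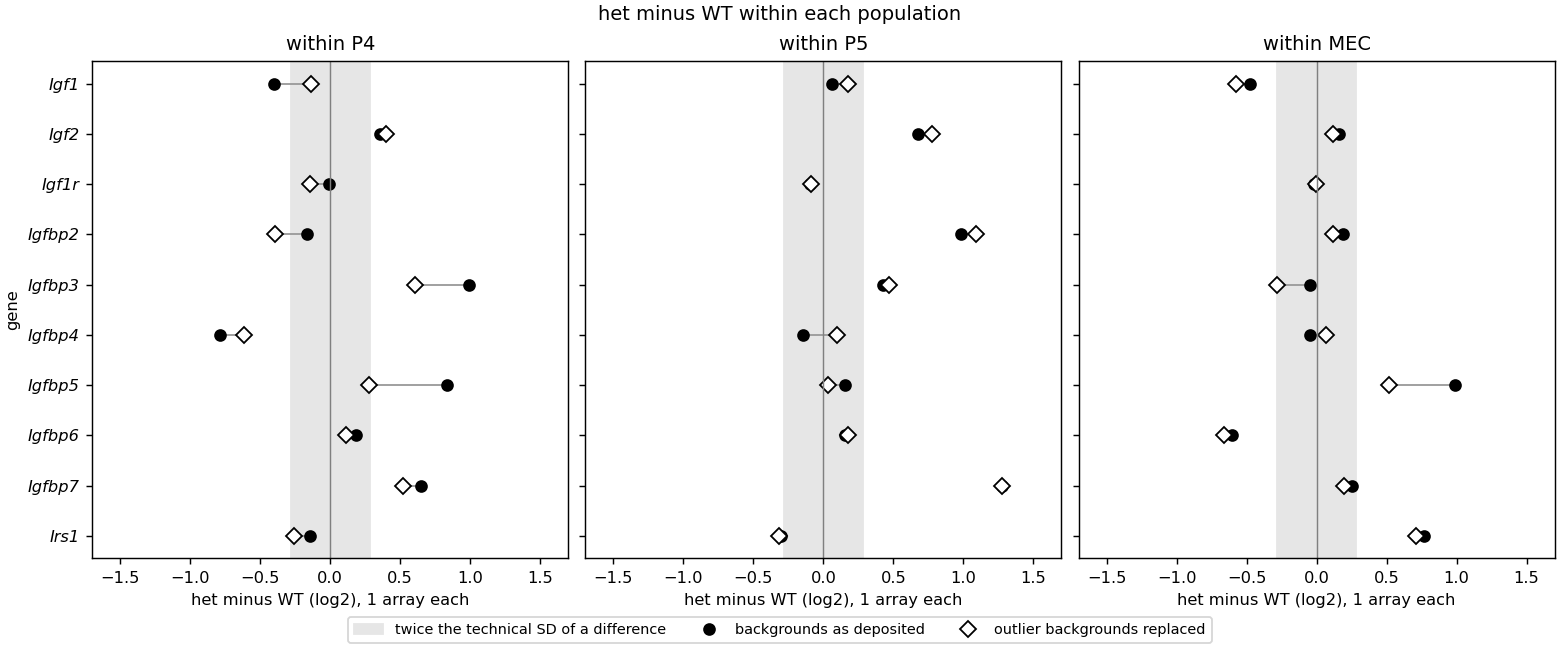
Het minus WT (log2, horizontal axis) for the 10 genes within P4, P5 and MEC, 1 array per genotype, with filled circles for backgrounds as deposited and open diamonds after outlying backgrounds were replaced. The grey band is 0.284 to either side of 0, which is 2 technical SDs of a difference between spots, and the Igfbp7 value in P5 lies farthest outside it.

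The other genes of the pathway were taken from a list of 46, of which 45 were on the array and 44 were tested. Between P4 and P5, 3 were called higher in P4 and 2 lower, where 5.01% and 5.52% of all genes were. After outlying backgrounds were replaced, 5 were called higher (7.48% of all genes), with the kinase gene Pik3ca and the growth hormone signalling inhibitor Socs2 added, and 4 lower (7.4%), with the lipid phosphatase gene Inppl1 and the adaptor gene Shc1 added. Their median difference was -0.04, against 0.04 over all genes.

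Pappa, which encodes the protease PAPP-A that cuts Igfbp4 and Igfbp5 and frees IGF, was higher in P4. Its log2 ratios were 1.96 in het P4 and 1.66 in WT P4, -0.90 in het P5 and -0.98 in WT P5, and 0.38 in het MEC and 0.59 in WT MEC. P4 minus P5 was 2.75 ± 0.16 (SE, n = 2 each; limma adjusted p = 0.007), P4 minus MEC was 1.32 (adjusted p = 0.0294) and P5 minus MEC was -1.42 (adjusted p = 0.0291). Stc2, whose product stanniocalcin-2 inhibits PAPP-A, ran the other way, with log2 ratios of -0.67 in het P4 and -0.29 in WT P4, 4.03 in het P5 and 4.23 in WT P5, and 3.43 in het MEC and 1.98 in WT MEC. P4 minus P5 was -4.61 ± 0.49 (adjusted p = 0.0151) and P4 minus MEC was -3.18 ± 0.49 (adjusted p = 0.0405). The protease gene was thus highest, and its inhibitor lowest, on the P4 arrays of both genotypes.

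Htra1, a secreted serine protease that can cut binding proteins, was 2.83 ± 0.29 higher in P4 than in P5 on the log2 scale (limma adjusted p = 0.0144) and lower in P5 than in MEC (-3.39, adjusted p = 0.0193). Ghr, the growth hormone receptor gene, was 0.80 ± 0.14 higher in P4 than in P5 (adjusted p = 0.0407). Grb14, an adaptor that binds and inhibits the insulin receptor, was lower in P4 than in P5 (-1.58 ± 0.28, adjusted p = 0.0394). Grb10, a related adaptor and an imprinted gene, was lower in both sorted fractions than in MEC, with differences of -1.53 for P4 (adjusted p = 0.0248) and -1.26 for P5 (adjusted p = 0.0315). Also against MEC, P4 was higher for the adaptor gene Irs4 (0.88, adjusted p = 0.0422) and lower for Igf2bp2 (-0.75, adjusted p = 0.0392), whose protein binds Igf2 RNA. In all, P4 minus MEC was called higher for 2 of the 44 genes (2.75% of all genes) and lower for 3 (4.1%). P5 minus MEC was called higher for 0 (0.922% of all genes) and lower for 3 (3.01%), and het minus WT for 0 in either direction (0% of all genes).

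**Figure D5:**
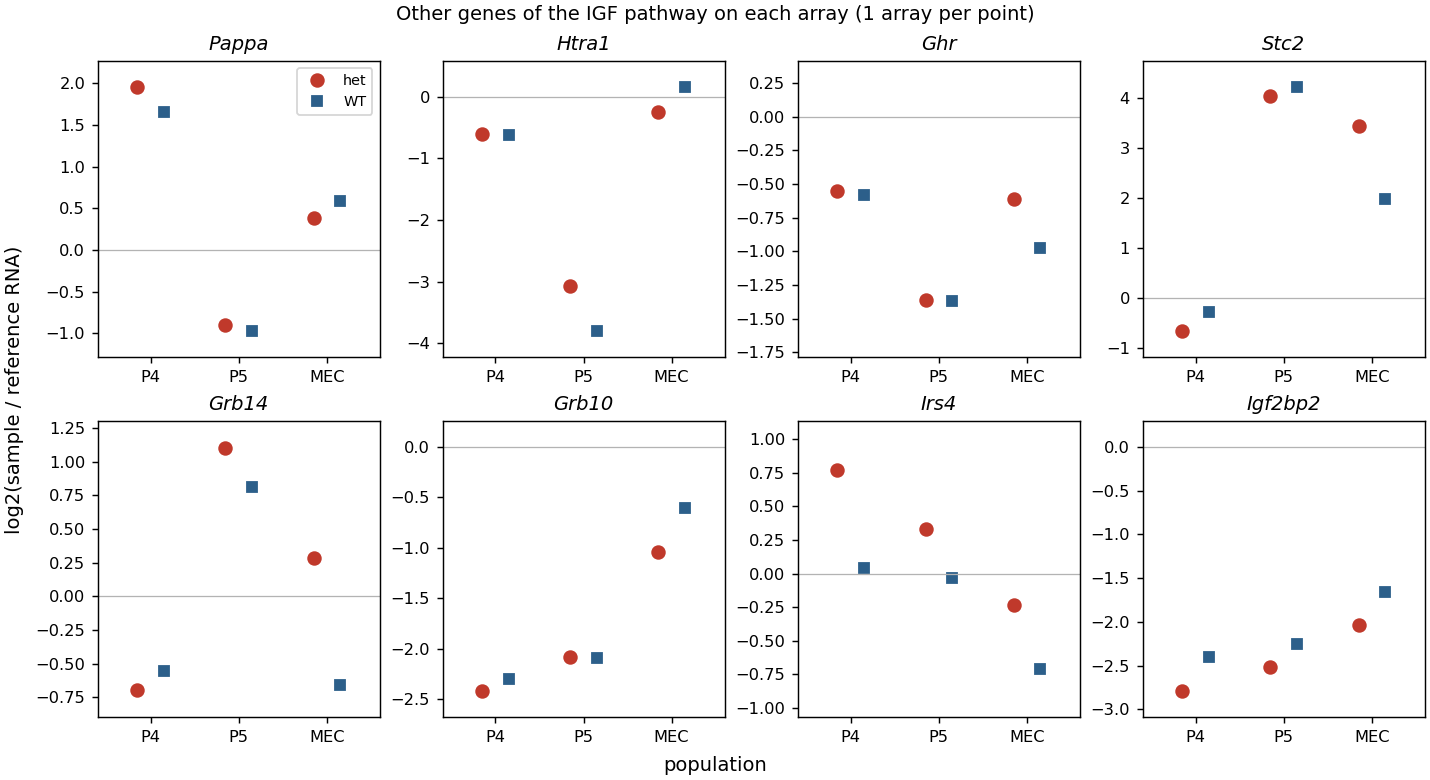
Log2 ratio of sample over reference RNA (vertical axis, a separate range per gene) for Pappa, Stc2, Htra1, Ghr, Grb14, Grb10, Irs4 and Igf2bp2, in P4, P5 and MEC, with het as red circles left of WT as blue squares, 1 array per point. Pappa is highest and Stc2 lowest in P4, and Grb10 and Igf2bp2 are highest in MEC.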

How the data were processed

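The 6 scanner tables were deposited by the authors as Agilent Feature Extraction output (version 9.5.3.1, per the submitters' processing notes), with each spot's mean and background intensity in Cy5 and Cy3 and a log10 ratio of Cy5 over Cy3, per the file headers. The deposited series table held log2 ratios, which matched those log10 ratios after conversion (r of 0.988 or higher on every array, slope 1, column medians -0.0441 to 0.101), so sample over reference. Its centring is not given in the sources used here. Intensities were background-corrected (normexp, offset 50), loess-normalised within arrays and averaged over the spots of a probe; outlier spots were left out. A probe entered the fit if its Cy5 signal was well above background on 2 or more arrays, and the brightest probe stood for a gene. An additive model of population and genotype was fitted with limma 3.58.1 in R 4.3.3, with 2 residual degrees of freedom. No group had a replicate, so p-values measure the spread left over between these arrays, and the number of arrays limits the precision. The fit was tested on simulated data, whose settings and outcome are not given here, so that test is not used as support. Alternatives were an offset of 0, replacing backgrounds over 3 times the array's median, the scanner's log ratio, median centring, Cy5 alone, other filters, the mean over probes, fewer arrays and the deposited table. Probe positions are those of build mm7, per the file headers; exons and UTRs of that build were not used here. The 10 genes, the pathway list and the marker lists (also luminal progenitor, hormone-sensing, pericyte, adipocyte and leukocyte) were chosen with earlier results of these data known. All members were named; of the pathway list, every gene called between P4 and P5 and up to 3 in each direction elsewhere; and the 3 most alike profiles of each member called between P4 and P5, of which 1 is not reported here. Figures were drawn with matplotlib 3.10.9.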

Additional observations from a re-analysis of the deposited data

Results flagged for a closer look

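Irs1 het minus WT was -0.30 in P5 and 0.77 in MEC, so the genotype difference ran in opposite directions in these populations, each beyond 0.284, which is 2 technical SDs of a difference between spots. With 1 array per group the difference between the populations was not tested. Its other probe gave log2 ratios of 0.67 in het P5 and 1.05 in WT P5, and 0.96 in het MEC and 0.37 in WT MEC, the same directions. After outlying backgrounds were replaced, that probe had 0.97 in het MEC and 0.82 in WT MEC, a difference of 0.15 that lies inside 0.284. The probe used for the gene had -0.32 in P5 and 0.71 in MEC. Over 9 processing settings, het minus WT of Irs1 ran from -1.14 to -0.293 in P5 and from 0.173 to 0.799 in MEC. The signs held, but the MEC value fell inside 0.284 in at least 1 setting.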

How the results depend on the processing

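No paired analysis was possible because each group had 1 array, so that no block by replicate number exists; the genotype term itself sets het beside WT within each of the 3 populations. Igfbp2, Igfbp3 and Igfbp7 were called in P4 minus P5 in 15 of 19 settings, Igf2 in 14 and Igf1r in 11. Leaving out any of the 4 sorted arrays ended these calls, with 0 genes called in any comparison. Leaving out 1 array in turn, the genes called ranged from 0 to 4631 in P4 minus P5, 0 to 4144 in P4 minus MEC, 0 to 2063 in P5 minus MEC and 0 to 854 in het minus WT. Over these fits Irs1 ranged from -0.981 to 0.009 (P4 minus MEC), -0.51 to 0.48 (P5 minus MEC) and -0.22 to 0.31 (het minus WT), and Igfbp6 from -0.23 to 0.17 (het minus WT). Genes called, against 2615, 1703, 977 and 0, were as follows. With offset 0, 1603 in P5 minus MEC and 416 in het minus WT. With outlying backgrounds replaced, 4414 in P4 minus MEC and 1508 in P5 minus MEC. With the scanner's ratio 4367 and 1601, with the authors' deposited log2 values 4364 and 1599, and with Cy5 alone 3695 and 1619 in those 2 comparisons. With median centring 895, 7026 (330 higher, 6696 lower, against 684 and 1019), 8279 (447 higher, 7832 lower, against 229 and 748) and 7858 (701 higher, 7157 lower); with replacement too, 4733 (1157 higher, 3576 lower, against 1245 and 1370), 16378 and 14378. P4 and P5 arrays alone called 4641 and 854, and with replacement, chosen after seeing the data, 7002 and 1799, where Igfbp7 het minus WT passed (0.90, limma adjusted p = 0.0275).

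Median centring turned P4 minus MEC for Igf1r (-0.32) and Igfbp7 (-0.94), P5 minus MEC for Igfbp5 (-0.81), and het minus WT for Igf2 (-0.51), Igfbp2 (-0.67), Igfbp3 (-0.41), Igfbp5 (-0.40), Igfbp7 (-0.43) and Irs1 (-0.87); the medians of all genes were -0.23, -0.35 and -0.21. It called Igf1 (-0.86), Igf1r (-0.87) and Igfbp6 (-1.17) lower in het. With replacement too, P4 minus P5 turned for Igf1 (-0.011), P4 minus MEC for Igf1r (-0.65), Igfbp5 (-0.20) and Igfbp7 (-1.29), P5 minus MEC for Igfbp5 (-0.97), and het minus WT for Igfbp2 (-0.20), Igfbp3 (-0.10), Igfbp5 (-0.22) and Irs1 (-0.40). Irs1 het minus WT also turned with the scanner's ratio and the deposited table (-0.056 each), Cy5 alone (-0.012), P4 and P5 arrays alone (-0.22) and those with replacement (-0.29). Cy5 alone turned Igfbp3 het minus WT (-0.47) and Irs1 P5 minus MEC (0.43); the mean over probes turned Igfbp5 (-0.043) and Irs1 (0.10) in P5 minus MEC. P4 and P5 arrays alone turned Igfbp6 het minus WT (0.17; 0.14 with replacement) and, with replacement, Igf1 (0.019). The cause was not tested. Signal over background, 3.13 to 4.88 in median, limits small differences of dim probes.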

Other observations

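4 further genes of the pathway list, chosen after their values were seen, show the receptors and the imprinted neighbour of Igf2. Igf2r, whose product removes IGF2 from the cell surface, had log2 ratios of 1.69 in het P4 and 1.51 in WT P4, 2.22 in het P5 and 2.54 in WT P5, and 1.82 in het MEC and 1.40 in WT MEC, so both P5 arrays were the highest, while P4 minus P5, -0.78, had a limma adjusted p of 0.0936. Insr, the insulin receptor gene, had -0.75 in het P4 and -0.35 in WT P4, -0.56 in het P5 and -0.17 in WT P5, and 0.19 in het MEC and 0.18 in WT MEC; P4 minus MEC was -0.73 (adjusted p = 0.0676, or 0.0156 after outlying backgrounds were replaced). Socs2, an inhibitor of growth hormone signalling, had 1.55 in het P4 and 1.13 in WT P4, -0.25 in het P5 and 0.25 in WT P5, and 1.14 in het MEC and 1.88 in WT MEC; P4 minus P5 was 1.35 (adjusted p = 0.0683, or 0.0266 after the replacement).

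H19, a noncoding RNA gene imprinted opposite to Igf2, has its probe 74534 bases from the nearest Igf2 probe on chromosome 7 of mm7. It had log2 ratios of 0.77 in het P4 and -0.13 in WT P4, 0.15 in het P5 and -0.20 in WT P5, and -0.16 in het MEC and -0.50 in WT MEC. P5 minus MEC was 0.30 for H19 (limma adjusted p = 0.413) and -1.69 for Igf2 (adjusted p = 0.0219). The difference between these 2 genes was not tested.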
